A study of Homo sapiens with 8 samples.

Results

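The genes described here encode the nuclear RNA polymerases I, II and III and the factors that bring polymerases I and III to their genes. They were taken from the sgRNA names of a genome-wide CRISPRi growth screen, as every symbol that starts with POLR1, POLR2 or POLR3 plus a letter, and 20 named factors. This gave 48 of the 17547 genes tested, with 480 sgRNA names listed, of which 242 passed a mean count of at least 20 and 238 had no count in any library. Of the 48 genes, 46 kept 5 sgRNAs and 2 kept 6. They fall into 6 subunits of polymerase I only, 2 shared by polymerases I and III, 7 polymerase I factors, 5 subunits shared by all polymerases, 6 subunits of polymerase II only, 2 genes named for polymerase II that are a paralog or an associated protein, 10 subunits of polymerase III only and 10 polymerase III factors. Symbols are those of the sgRNA names. The current symbols of ZNRD1, CD3EAP and TWISTNB in RefSeq are POLR1H, POLR1G and POLR1F.

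The cells were K562, an established human line of erythroleukemia origin. Counts came from the sgRNA cassettes in their genomic DNA, and no transcript was measured. In CRISPRi, an sgRNA brings dCas9-KRAB, an inactive Cas9 fused to a repressor domain, to a promoter and lowers transcription there, so sgRNAs against genes that a cell needs to grow become rarer. The 4 groups of 2 libraries each were mutant uL16 at day 9, mutant uL16 at day 0, wild-type uL16 at day 9 and wild-type uL16 at day 0. All cells carried dCas9-KRAB and stably expressed the given form of uL16, a protein of the large ribosomal subunit. The labels call the mutant form only mutant or delta and do not say which change it carries, whether each line was 1 clone, or whether replicates were separate transductions, so the p-values measure the spread between these libraries, which may be technical. Cells were held in puromycin for 3 days to remove cells without an sgRNA. The design text puts the harvest after 10 doublings and the labels at day 9.

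Polymerase I transcribes the large ribosomal RNA precursor in the nucleolus, polymerase II transcribes messenger RNAs, and polymerase III transcribes transfer RNAs, the smallest ribosomal RNA and other short RNAs. The enzymes are built on a common plan, with some subunits particular to 1 enzyme, others shared by polymerases I and III and others present in all. Initiation needs factors of its own for each enzyme: UBTF, RRN3 and the SL1 complex for polymerase I, and TFIIIA, TFIIIB and TFIIIC for polymerase III.

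Since CRISPRi acts at promoters, the 120 bases before the annotated start are given for 7 genes that had the largest fall of their role in at least 1 line (POLR2H, TWISTNB, POLR1D, TAF1A, POLR2D, POLR3A and GTF3C3) and for POLR1A, the largest subunit of polymerase I, whose sgRNAs passed no test. The genes were chosen after their values were seen. Sequences are from RefSeq on GRCh38.p14, 5′ to 3′ on the gene's own strand, at the more upstream start where 2 are listed. The sgRNA sequences are not in the files used here, and the build of the positions in the sgRNA names is not stated, so the sgRNAs were not placed in these windows. Capitals mark a match, on either strand, to a motif named after the sequences.
POLR2H, chr3:184361590-184361709, + strand: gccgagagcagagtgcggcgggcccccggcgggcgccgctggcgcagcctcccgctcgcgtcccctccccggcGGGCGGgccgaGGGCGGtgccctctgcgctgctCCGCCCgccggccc
TWISTNB, chr7:19709038-19709157, - strand: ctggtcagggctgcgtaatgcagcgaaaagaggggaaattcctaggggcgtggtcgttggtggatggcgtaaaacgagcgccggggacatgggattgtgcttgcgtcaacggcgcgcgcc
POLR1D, chr13:27620623-27620742, + strand: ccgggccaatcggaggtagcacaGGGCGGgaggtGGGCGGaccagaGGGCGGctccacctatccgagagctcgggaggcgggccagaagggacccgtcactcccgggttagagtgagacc
TAF1A, chr1:222589934-222590053, - strand: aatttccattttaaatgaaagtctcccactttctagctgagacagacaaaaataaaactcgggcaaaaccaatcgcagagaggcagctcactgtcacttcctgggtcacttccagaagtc
POLR2D, chr2:127858156-127858275, - strand: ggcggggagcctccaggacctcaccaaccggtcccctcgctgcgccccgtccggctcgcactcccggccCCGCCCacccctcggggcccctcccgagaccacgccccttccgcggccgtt
POLR3A, chr10:78029516-78029635, - strand: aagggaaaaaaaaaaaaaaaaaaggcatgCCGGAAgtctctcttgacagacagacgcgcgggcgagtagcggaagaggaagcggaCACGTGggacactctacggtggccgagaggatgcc
GTF3C3, chr2:196799684-196799803, - strand: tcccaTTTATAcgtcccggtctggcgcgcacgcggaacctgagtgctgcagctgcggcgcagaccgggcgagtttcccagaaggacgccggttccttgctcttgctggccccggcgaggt
POLR1A, chr2:86105887-86106006, - strand: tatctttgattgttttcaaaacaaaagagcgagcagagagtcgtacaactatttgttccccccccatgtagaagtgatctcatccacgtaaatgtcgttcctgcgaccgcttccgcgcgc

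The motifs were searched in 300-base windows, 250 bases before to 50 after a start, which RefSeq gave for 40 of the 48 genes in 54 windows. The ETS core CCGGAA occurred in 53.7% of the 54 windows, in 25 of the 40 genes, and in 17.2% of all 35116 windows of the table. The SP1 motif GGGCGG occurred in 59.3% against 45%, and the E-box CACGTG in 13% against 7.26%. The TATA box TATAAA was rarer in these windows, at 3.7% against 11.5% of all windows. Both strands were searched, no motif contains another, and neighbouring windows of 1 gene can overlap. A match shows that these letters are present and says nothing of a factor's binding. Of the 8 genes printed, POLR2H, POLR1D and POLR2D held SP1 matches, GTF3C3 a TATA box and POLR3A an ETS core and an E-box in the bases shown.

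Total counts ranged from 39233340 to 143585751 per library. Values per gene are the counts of its sgRNAs, summed and scaled to library size as CPM with TMM factors. Log2 changes are fitted day 9 over day 0 values with a standard error (SE). For edgeR the SE was derived from the test, as the size of the change over the square root of its F statistic. A gene was called lower or higher at an adjusted p under 0.05 by edgeR's quasi-likelihood test with Benjamini-Hochberg adjustment over all genes. The 1894 non-targeting sgRNAs had a median log2 change of 0.02 in mutant cells (SD 0.27 over sgRNAs) and 0.02 in wild-type cells (SD 0.29). The labelled cell line was checked by its known dependencies: sgRNAs against GATA1, the erythroid transcription factor, changed by -2.65 (SE 0.19) in mutant and -3.09 (SE 0.20) in wild-type cells, and those against BCR, part of the fusion kinase gene of these cells, by -2.21 (SE 0.16) and -1.89 (SE 0.16). ZNF574, the gene in the series title, had the values -2.39 (SE 0.15) in mutant and -0.36 (SE 0.14) in wild-type cells.

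sgRNAs against the polymerase genes became rarer in both lines. In mutant cells 32 of the 48 genes were called lower, where 9.07% of all 17547 genes were, and 0 were called higher, where 0.798% were. In wild-type cells 28 were lower, against 9.28% of all genes, and 0 higher, against 0.986%. The median log2 change was -0.57 in mutant and -0.50 in wild-type cells over the 48 genes, and 0.01 in either line over all genes. Both day 9 libraries lay below both day 0 libraries for 39 of the 48 genes in mutant cells, where 24.5% of all genes did so, and for 41 in wild-type cells, where 24.2% did. The 28 genes lower in wild-type cells were all among the 32 of mutant cells, so 58.3% of the 48 were lower in both lines, against 7.49% of all genes. POLR2F, POLR2K, POLR3K and TTF1 were called in mutant cells and not in wild-type cells. POLR2F, POLR2K and POLR3K also passed in wild-type cells in several other settings, and TTF1 in 1 of 20 (DESeq2). The difference between lines was not called for any of these genes. DESeq2 called POLR2F (adjusted p = 0.0167), POLR2K (adjusted p = 0.0350) and TTF1 (adjusted p = 0.0218) in wild-type cells, and scaling to the control sgRNAs called POLR2F (edgeR adjusted p = 0.0271) and POLR3K (adjusted p = 0.0476).

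**Figure D1:**
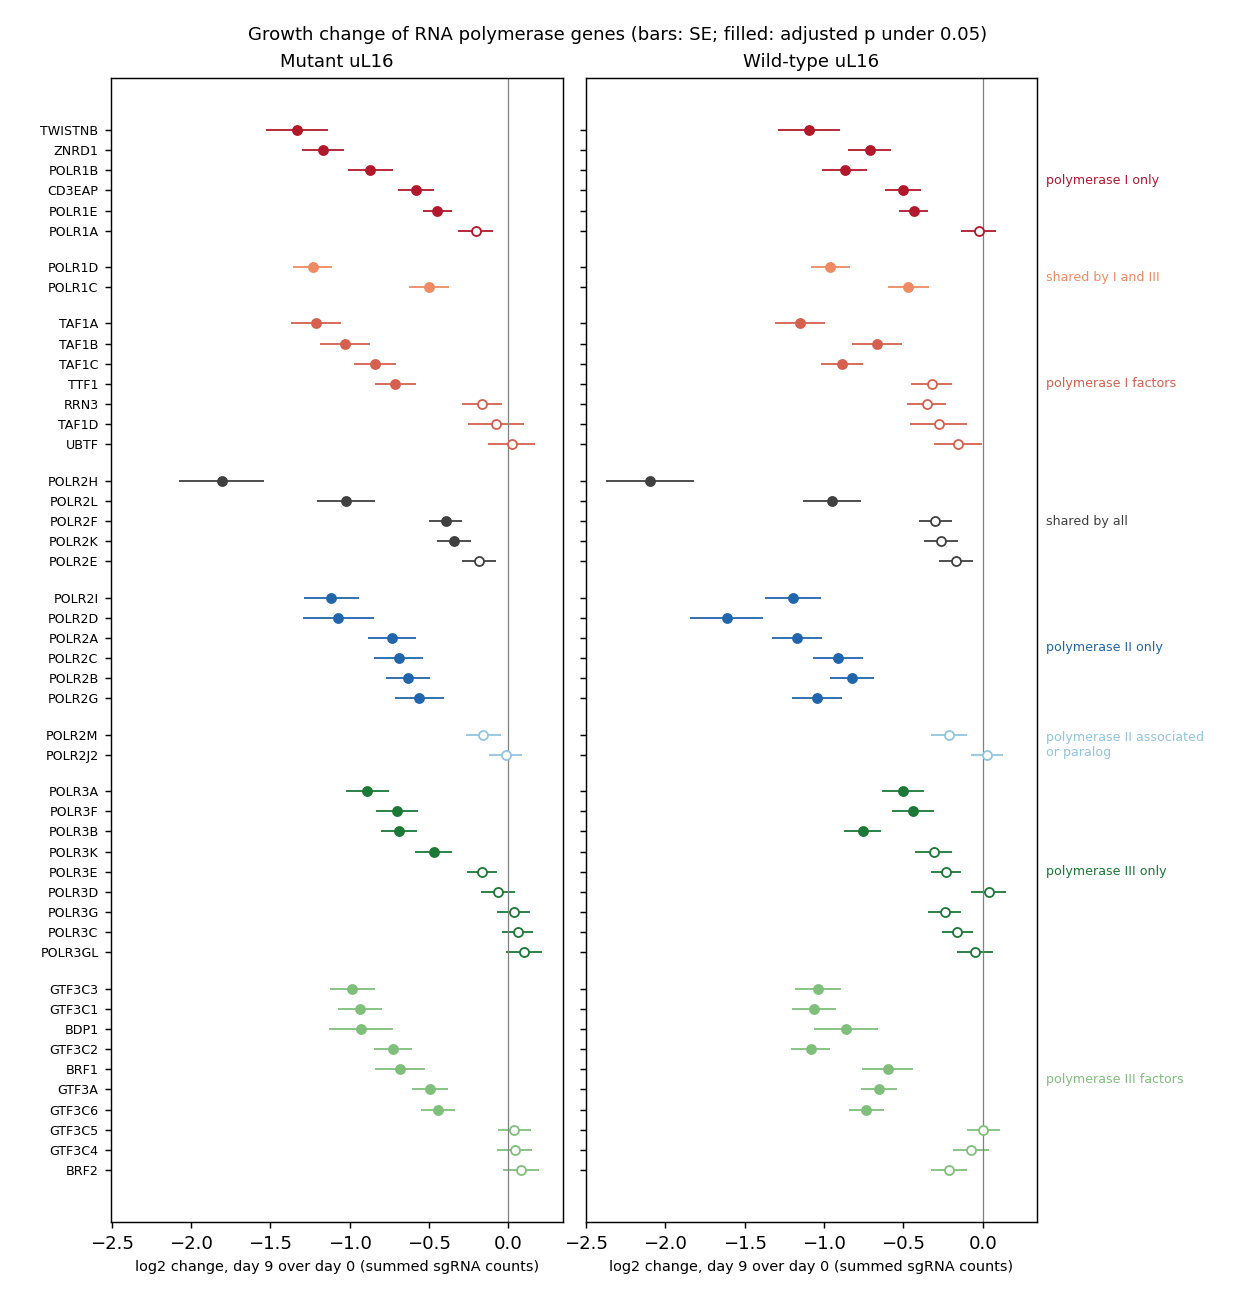
Fitted log2 change of the summed sgRNA counts, day 9 over day 0, for genes of the set by role, in mutant cells (left) and wild-type cells (right). Bars are SE, filled points are genes with an adjusted p under 0.05, and a vertical line marks no change. POLR2H lies farthest left in both panels, at -1.81 in mutant and -2.10 in wild-type cells, and no filled point lies right of the line.

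Of the 6 subunits of polymerase I only, 5 were called lower in mutant and 5 in wild-type cells, with medians of -0.72 and -0.61. TWISTNB, a subunit of the stalk, fell most in either line. Its sgRNAs summed to 14.3 and 9.51 CPM in the mutant day 9 libraries, against 29.0 and 30.3 CPM in the mutant day 0 libraries. In wild-type cells it had 12.1 and 12.3 CPM at day 9 and 26.4 and 25.6 CPM at day 0. All day 9 values lay below all day 0 values, by -1.33 on the log2 scale (SE 0.20, edgeR adjusted p = 2.28e-06) in mutant and -1.09 (SE 0.20, adjusted p = 6.67e-05) in wild-type cells. ZNRD1, a small subunit whose yeast counterpart takes part in RNA cleavage, had 19.9 and 21.5 CPM at day 9 and 47.7 and 45.7 CPM at day 0 in mutant cells. Its wild-type libraries had 22.2 and 23.2 CPM at day 9 and 37.5 and 36.9 CPM at day 0. Its groups did not overlap, and its changes were -1.17 (SE 0.14) in mutant and -0.71 (SE 0.14) in wild-type cells.

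POLR1B, the second largest subunit, changed almost alike in both lines, by -0.87 (SE 0.14) in mutant and -0.87 (SE 0.14) in wild-type cells. POLR1E and CD3EAP, which form a dimer on the enzyme, gave smaller sums: POLR1E -0.45 (SE 0.09) in mutant and -0.44 (SE 0.09) in wild-type cells, and CD3EAP -0.58 (SE 0.11) and -0.50 (SE 0.11). The mutant call of POLR1E was lost without its most abundant sgRNA, at -0.31 (edgeR adjusted p = 0.0763). The CD3EAP call in wild-type cells was lost without wild-type day 0 replicate 2 (adjusted p = 0.0606) and without wild-type day 9 replicate 2 (adjusted p = 0.0873), both by edgeR. POLR1A, which carries the catalytic centre, had 50.5 and 42.5 CPM at day 9 and 50.9 and 56.1 CPM at day 0 in mutant cells. The wild-type libraries had 49.4 and 53.5 CPM at day 9 and 52.3 and 52.4 CPM at day 0. These values lay close together, overlapping in wild-type cells, and the fitted -0.21 (SE 0.11) in mutant and -0.02 (SE 0.11) in wild-type cells did not pass.

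Both subunits shared by polymerases I and III were called lower in both lines. POLR1D had 21.7 and 23.1 CPM at day 9 and 53.7 and 51.8 CPM at day 0 in mutant cells. Wild-type cells gave 26.6 and 25.8 CPM at day 9 and 52.6 and 49.5 CPM at day 0. The replicates lay close together and the days far apart, with changes of -1.23 (SE 0.12, edgeR adjusted p = 8.11e-10) in mutant and -0.96 (SE 0.12, adjusted p = 1.69e-07) in wild-type cells. POLR1C, its partner in the assembly platform of both enzymes, changed by -0.50 (SE 0.13) in mutant and -0.47 (SE 0.13) in wild-type cells, and both calls were lost when the sgRNAs of its second promoter were added, at -0.10 and -0.08. The mutant call of POLR1C was also lost without mutant day 0 replicate 1 or mutant day 9 replicate 1. Its wild-type call was lost without wild-type day 0 replicate 1, wild-type day 0 replicate 2 or wild-type day 9 replicate 2.

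Among the 7 polymerase I factors, 4 were lower in mutant and 3 in wild-type cells, and the members of the SL1 complex led them. TAF1A, an SL1 subunit, had 17.6 and 18.1 CPM at day 9 and 42.3 and 40.6 CPM at day 0 in mutant cells. Its wild-type values were 13.7 and 20.3 CPM at day 9 and 39.2 and 36.4 CPM at day 0. The days did not overlap, and the changes were -1.21 (SE 0.16) in mutant and -1.15 (SE 0.16) in wild-type cells. TAF1B changed by -1.03 (SE 0.16) in mutant and -0.67 (SE 0.16) in wild-type cells, the wild-type call being lost without wild-type day 0 replicate 2 (edgeR adjusted p = 0.0815). TAF1C changed by -0.84 (SE 0.13) in mutant and -0.89 (SE 0.13) in wild-type cells. Another SL1 subunit, TAF1D, did not pass, at -0.08 (SE 0.18) in mutant and -0.28 (SE 0.18) in wild-type cells. SL1 subunits outside the set are not counted here.

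UBTF, the architectural factor of ribosomal gene promoters, and RRN3, which joins polymerase I to the promoter complex, were called in neither line. UBTF had 30.4 and 29.5 CPM at day 9 and 26.3 and 32.5 CPM at day 0 in mutant cells. The wild-type values were 29.9 and 24.9 CPM at day 9 and 29.0 and 32.1 CPM at day 0. Its days overlapped in both lines. RRN3 was at -0.17 (SE 0.12) in mutant and -0.35 (SE 0.12) in wild-type cells (edgeR adjusted p = 0.0690 in wild-type cells), and passed in wild-type cells with DESeq2 (adjusted p = 0.0225) and with scaling to the controls (adjusted p = 0.0351). Its wild-type value moved to -0.72 without its most abundant sgRNA (edgeR adjusted p = 0.00652) and to -0.81 with each sgRNA counted alike in limma (adjusted p = 0.00387). TTF1, which terminates ribosomal RNA transcription, was lower by -0.71 (SE 0.13) in mutant cells, a call that was lost without its most abundant sgRNA, at -0.16. In wild-type cells TTF1 did not pass, at -0.32 (SE 0.13, edgeR adjusted p = 0.128). Over the other settings its wild-type value ran from -0.50 to 0.25, on both sides of 0.

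Of the 5 subunits present in all polymerases, 4 were called lower in mutant and 2 in wild-type cells. POLR2H, a small auxiliary subunit, had the largest fall of the 48 genes. It had 6.29 and 5.82 CPM at day 9 and 19.5 and 22.7 CPM at day 0 in mutant cells. In wild-type cells it had 3.37 and 6.54 CPM at day 9 and 22.4 and 20.1 CPM at day 0. Every day 9 library lay far below every day 0 library, by -1.81 (SE 0.27, edgeR adjusted p = 3.11e-06) in mutant and -2.10 (SE 0.28, adjusted p = 3.38e-07) in wild-type cells.

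POLR2L, another small shared subunit, changed by -1.02 (SE 0.18) in mutant and -0.95 (SE 0.18) in wild-type cells. POLR2F passed in mutant cells at -0.39 (SE 0.10) and not in wild-type cells at -0.30 (SE 0.10, edgeR adjusted p = 0.0614), where it passed without its most abundant sgRNA at -0.41 (adjusted p = 0.0287) and without wild-type day 9 replicate 1 at -0.42 (adjusted p = 0.0122). POLR2K passed in mutant cells at -0.34 (SE 0.11) and not in wild-type cells at -0.26 (SE 0.11, edgeR adjusted p = 0.142), where it passed at -0.66 without its most abundant sgRNA (adjusted p = 0.00203) and at -0.90 with each sgRNA counted alike in limma (adjusted p = 5.81e-05). Both mutant calls were weak: that of POLR2F was lost without mutant day 0 replicate 2 or mutant day 9 replicate 2, and that of POLR2K without mutant day 0 replicate 1, mutant day 0 replicate 2, mutant day 9 replicate 2, wild-type day 0 replicate 1 or wild-type day 0 replicate 2. POLR2E, a subunit of the enzyme's jaw, was called in neither line.

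All 6 subunits of polymerase II only were called lower in both lines, with medians of -0.71 in mutant and -1.11 in wild-type cells. POLR2I, whose yeast counterpart contributes to transcript fidelity, fell most in mutant cells. It had 18.1 and 14.4 CPM at day 9 and 35.8 and 34.3 CPM at day 0 in mutant cells, against 12.6 and 18.8 CPM at day 9 and 32.9 and 39.1 CPM at day 0 in wild-type cells. Its days were well apart, at -1.12 (SE 0.17) in mutant and -1.20 (SE 0.18) in wild-type cells. POLR2D, a subunit of the stalk, fell most in wild-type cells. It had 14.9 and 10.7 CPM at day 9 and 25.7 and 27.6 CPM at day 0 in mutant cells, against 5.63 and 10.0 CPM at day 9 and 23.9 and 24.1 CPM at day 0 in wild-type cells. The day 9 values of mutant cells lay above those of wild-type cells while the day 0 values were close, and the changes were -1.07 (SE 0.22) in mutant and -1.61 (SE 0.23) in wild-type cells.

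POLR2G, the partner of POLR2D in the stalk, changed by -0.56 (SE 0.15) in mutant and -1.04 (SE 0.16) in wild-type cells. The mutant call of POLR2G was lost without mutant day 0 replicate 1 (edgeR adjusted p = 0.323) or mutant day 9 replicate 2 (adjusted p = 0.190), and at a mean count of at least 100 (adjusted p = 0.0531). POLR2A, the largest subunit with the C-terminal repeat domain, was at -0.73 (SE 0.15) in mutant and -1.17 (SE 0.16) in wild-type cells. POLR2B, the second largest, was at -0.63 (SE 0.14) in mutant and -0.82 (SE 0.14) in wild-type cells, and POLR2C, part of the assembly platform, at -0.69 (SE 0.15) in mutant and -0.91 (SE 0.16) in wild-type cells. The mutant call of POLR2B was lost without mutant day 0 replicate 1 (edgeR adjusted p = 0.117), and that of POLR2C without mutant day 0 replicate 2 (adjusted p = 0.146). Both calls of POLR2D were lost when the sgRNAs of its second promoter were added, at -0.16 and -0.25. POLR2M, a protein that associates with polymerase II, and POLR2J2, a paralog of a core subunit, were called in neither line. POLR2M had 49.1 and 49.7 CPM at day 9 and 52.5 and 57.6 CPM at day 0 in mutant cells, against 41.9 and 49.7 CPM at day 9 and 49.9 and 56.4 CPM at day 0 in wild-type cells. Its days lay close without overlapping, at -0.16 (SE 0.11) in mutant and -0.21 (SE 0.11) in wild-type cells.

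Of 10 subunits of polymerase III only, 4 were called lower in mutant and 3 in wild-type cells, with medians of -0.17 and -0.24. The shares of polymerase I, II and III subunits called were not compared by a test. Genes were taken by symbol, so a role need not hold every subunit of its enzyme. POLR3A, the largest subunit, had 21.1 and 22.5 CPM at day 9 and 39.4 and 41.4 CPM at day 0 in mutant cells. In wild-type cells it had 27.3 and 27.0 CPM at day 9 and 37.8 and 39.2 CPM at day 0. The days were apart in both lines, at -0.89 (SE 0.13) in mutant and -0.50 (SE 0.13) in wild-type cells, the wild-type call being lost without wild-type day 0 replicate 1 or wild-type day 0 replicate 2.

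POLR3B, the second largest subunit, fell most among them in wild-type cells. It had 31.4 and 34.4 CPM at day 9 and 51.9 and 54.5 CPM at day 0 in mutant cells, and 31.8 and 32.2 CPM at day 9 and 56.4 and 51.6 CPM at day 0 in wild-type cells. Its days did not overlap, and the changes were -0.69 (SE 0.12) in mutant and -0.76 (SE 0.12) in wild-type cells. POLR3F, part of the initiation subcomplex with POLR3C and POLR3G, changed by -0.70 (SE 0.13) in mutant and -0.44 (SE 0.13) in wild-type cells. The wild-type call of POLR3F was lost in 5 of the 8 settings that left out 1 library, both mutant day 0 libraries, both wild-type day 0 libraries and wild-type day 9 replicate 2. POLR3K, a small subunit whose yeast counterpart is needed for termination, passed at -0.47 (SE 0.12) in mutant cells and did not pass at -0.31 (SE 0.12) in wild-type cells. The mutant call of POLR3K was lost without mutant day 0 replicate 1 or mutant day 9 replicate 2. POLR3K passed in wild-type cells without wild-type day 9 replicate 2, at -0.54 (edgeR adjusted p = 0.00195), and without its most abundant sgRNA, at -0.53 (adjusted p = 0.00395).

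POLR3C, POLR3D, POLR3E, POLR3G and POLR3GL were called in neither line. Their changes lay between -0.16 for POLR3E and 0.10 for POLR3GL in mutant cells, and between -0.24 for POLR3G and 0.04 for POLR3D in wild-type cells. POLR3G and POLR3GL are alternative forms of 1 subunit. Some of these genes passed in other settings. With each sgRNA counted alike in limma, POLR3E passed at -0.37 in mutant (adjusted p = 0.0487) and -0.49 in wild-type cells (adjusted p = 0.00537), and POLR3C passed at -0.43 in wild-type cells (adjusted p = 0.00587). DESeq2 called POLR3E (adjusted p = 0.0464) and POLR3G (adjusted p = 0.0379) in wild-type cells, and without its most abundant sgRNA POLR3E passed in wild-type cells at -0.50 (edgeR adjusted p = 0.00824).

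Of 10 polymerase III factors, 7 were lower in mutant and 7 in wild-type cells, with medians of -0.59 and -0.69. GTF3C3, a TFIIIC subunit, fell most in mutant cells. It had 18.9 and 21.7 CPM at day 9 and 37.5 and 42.9 CPM at day 0 in mutant cells, against 20.0 and 18.9 CPM at day 9 and 39.1 and 40.7 CPM at day 0 in wild-type cells. Its 4 day 9 libraries lay together below its 4 day 0 libraries, at -0.98 (SE 0.14) in mutant and -1.04 (SE 0.14) in wild-type cells. GTF3C2, also in TFIIIC, fell most in wild-type cells, with 46.3 and 33.6 CPM at day 9 and 66.5 and 65.0 CPM at day 0 in mutant cells, against 31.8 and 28.9 CPM at day 9 and 67.4 and 61.3 CPM at day 0 in wild-type cells. The days did not overlap and the day 9 values of wild-type cells were the lowest, at -0.73 (SE 0.12) in mutant and -1.09 (SE 0.12) in wild-type cells.

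TFIIIC, which binds inside transfer RNA genes, had 4 of its 6 subunits called lower in each line. GTF3C1 was at -0.93 (SE 0.14) in mutant and -1.06 (SE 0.14) in wild-type cells, and GTF3C6 at -0.44 (SE 0.11) and -0.73 (SE 0.11). GTF3C4 and GTF3C5 did not pass and lay between 0.04 and -0.07 in both lines. In TFIIIB, which recruits polymerase III, BDP1 was at -0.93 (SE 0.20) in mutant and -0.86 (SE 0.20) in wild-type cells, and BRF1 at -0.68 (SE 0.16) and -0.60 (SE 0.16). BRF2, which replaces BRF1 at genes with an upstream promoter, did not pass, at 0.08 (SE 0.11) and -0.21 (SE 0.11). GTF3A, the factor of the smallest ribosomal RNA gene, was at -0.50 (SE 0.11) in mutant and -0.65 (SE 0.12) in wild-type cells. The mutant calls of BRF1 and GTF3C6 were lost without mutant day 0 replicate 1, and that of GTF3A without mutant day 0 replicate 2. The wild-type call of BDP1 was lost without wild-type day 0 replicate 1, and that of BRF1 without either wild-type day 0 library or without wild-type day 9 replicate 1.

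**Figure D2:**
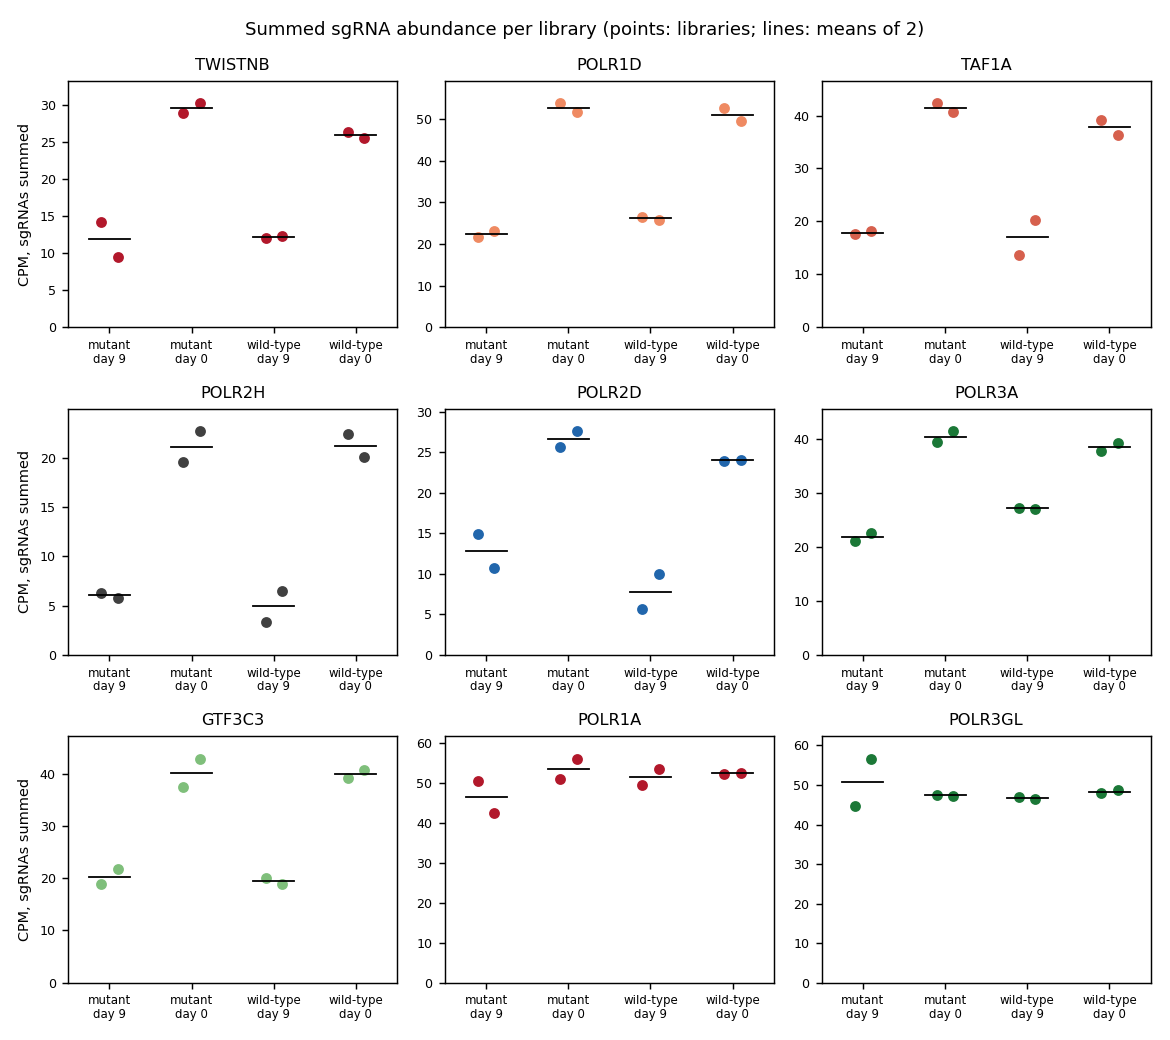
Summed sgRNA abundance in CPM in each of the 8 libraries for 9 of the genes, with points for libraries and lines for the mean of the 2 replicates. In the 7 panels from TWISTNB to GTF3C3 every day 9 point lies below every day 0 point of its line, while the points of POLR1A and POLR3GL all lie between 42.5 and 56.7 CPM.

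The sgRNAs of 1 gene differed widely. Taken singly, 78 of the 242 sgRNAs (32.2%) were called lower in mutant cells, where 5.09% of all 102987 sgRNAs were, and 83 (34.3%) in wild-type cells, where 5.21% were. None of the 242 was called higher in either line, where 0.174% and 0.273% of all sgRNAs were. In the difference between lines 0 of the 242 were called, and 0 of all 102987 sgRNAs were (edgeR). In mutant cells 34 sgRNAs, and in wild-type cells 31, had a fitted log2 change below -3. At least 1 sgRNA was called in either line for 36 genes and none for 12. For these counts, and for those below -3, the share over all genes or sgRNAs was not computed, so they describe the set alone. POLR2H was the 1 gene whose sgRNAs were all called in both lines, between -5.35 and -1.19 in mutant and between -5.76 and -1.33 in wild-type cells. Its most abundant sgRNA held 59.1% of the gene's day 0 count and changed least. That sgRNA had 5.98 and 5.45 CPM at day 9 and 12.2 and 13.9 CPM at day 0 in mutant cells, and 3.06 and 6.15 CPM at day 9 and 11.7 and 11.7 CPM at day 0 in wild-type cells.

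In several other genes some sgRNAs were called and others lay near 0, and the sum weights each by its counts. In CD3EAP 3 sgRNAs were at -3.43, -3.33 and -3.62 in mutant and -3.56, -3.74 and -3.46 in wild-type cells. The other 2, which held 47.8% and 13.3% of its day 0 count, were at 0.06 and 0.12 in mutant and 0.21 and -0.06 in wild-type cells. The most abundant of the called sgRNAs had 2.11 and 1.51 CPM at day 9 and 21.8 and 16.6 CPM at day 0 in mutant cells, and 1.18 and 1.91 CPM at day 9 and 16.9 and 20.0 CPM at day 0 in wild-type cells. In POLR1D 4 sgRNAs lay between -5.06 and -3.26 in mutant and between -4.30 and -3.45 in wild-type cells, and the fifth, with 44.0% of the count, was at -0.16 and 0.09. In TWISTNB 4 of 5 sgRNAs were called in each line, and the fifth, with 34.8% of the count, was at -0.08 in mutant and 0.17 in wild-type cells. GTF3C6 had 2 sgRNAs at -4.77 and -4.28 in mutant and -3.62 and -3.57 in wild-type cells, beside 3 that were not called.

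Where each sgRNA counted alike, as the mean log2 CPM in limma, 32 of the 48 genes were lower in mutant and 33 in wild-type cells, against 11.7% and 12.3% of all genes. The median over the 48 genes was then -0.91 in mutant and -0.94 in wild-type cells, against -0.02 and -0.02 over all genes. Among the genes of the set called in the summed counts, the mean over sgRNAs was more than 1.5 times the summed change for 19 of 32 in mutant and 16 of 28 in wild-type cells. The share among all called genes was not computed, so these counts describe the set alone. POLR2H reached -3.68 (SE 0.30) in mutant and -3.67 (SE 0.30) in wild-type cells on this scale, POLR1D -3.34 (SE 0.22) and -3.02 (SE 0.22), and TWISTNB -3.15 (SE 0.28) and -2.74 (SE 0.28). The medians by role were -1.74 in mutant and -1.46 in wild-type cells for subunits of polymerase I only, -1.96 in mutant and -2.01 in wild-type cells for polymerase II only, and -0.29 in mutant and -0.39 in wild-type cells for polymerase III only.

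**Figure D3:**
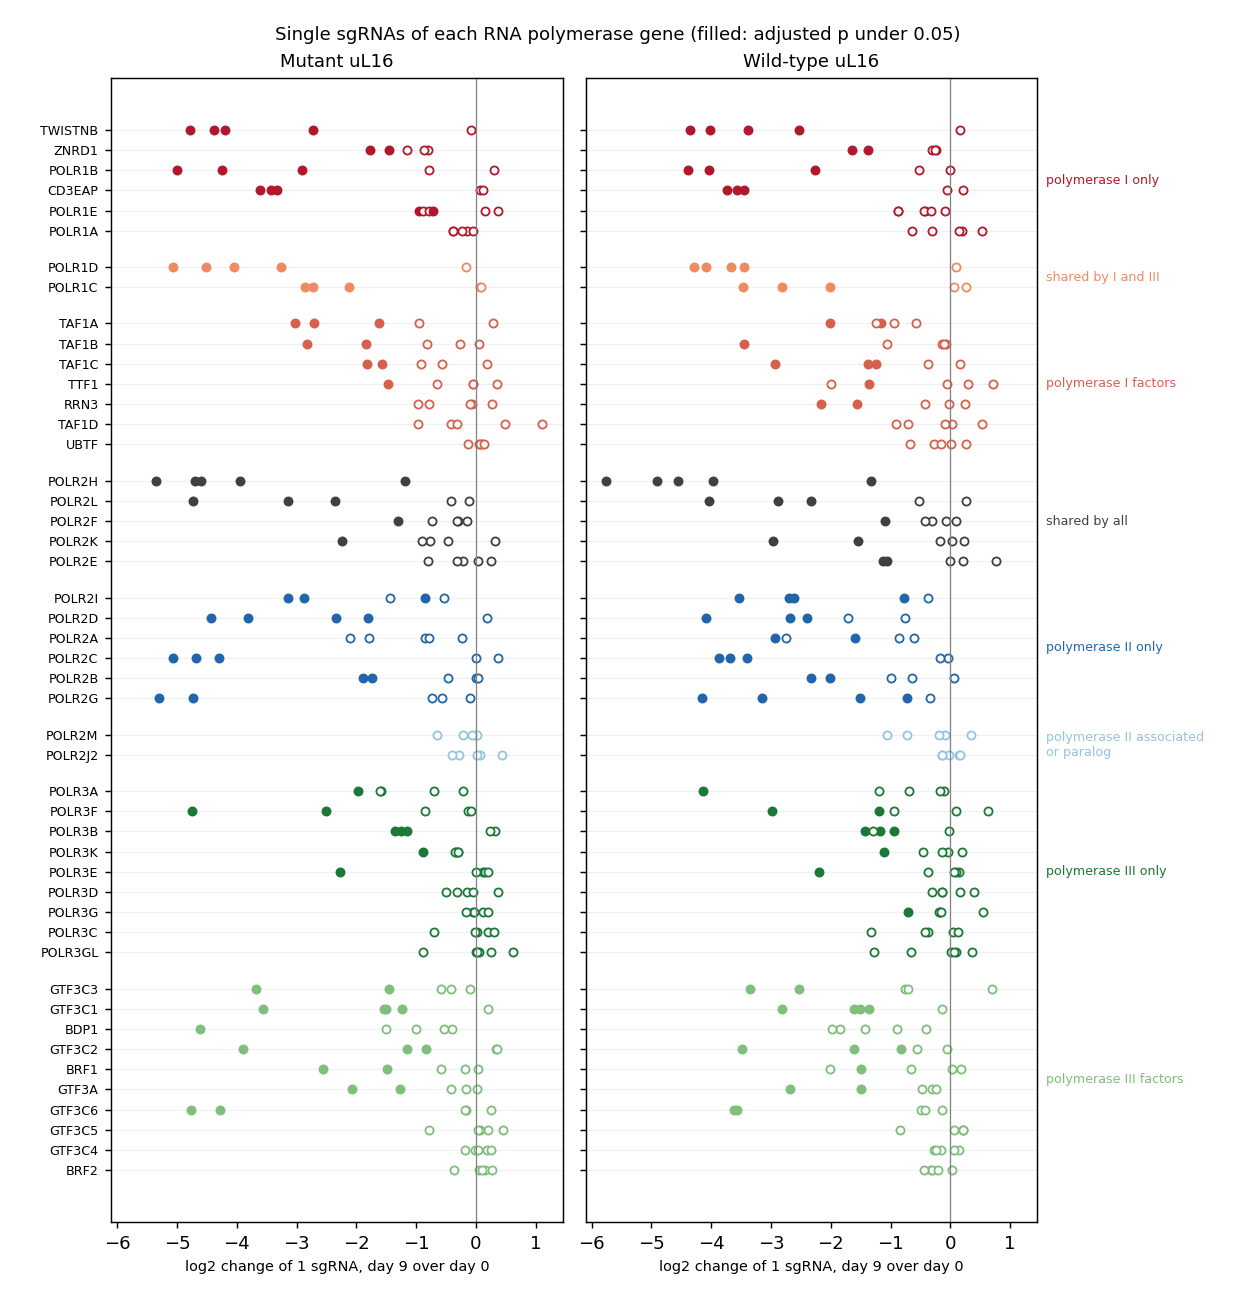
Fitted log2 change of each single sgRNA, day 9 over day 0, for genes of the set in mutant cells (left) and wild-type cells (right). Each point is 1 sgRNA and filled points have an adjusted p under 0.05. Called sgRNAs reach -5.35 in mutant and -5.76 in wild-type cells (both POLR2H), and most genes have open points near 0 beside them.

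In some uncalled genes 1 sgRNA stood apart. POLR3E, a peripheral subunit, had 1 of 5 sgRNAs at -2.27 in mutant (edgeR adjusted p = 2.30e-06) and -2.20 in wild-type cells (adjusted p = 4.21e-06). It had 3.63 and 2.61 CPM at day 9 and 14.9 and 15.2 CPM at day 0 in mutant cells, and 4.68 and 2.65 CPM at day 9 and 14.3 and 19.6 CPM at day 0 in wild-type cells. The days were far apart for this sgRNA, while the other 4 lay between 0.01 and 0.19 in mutant and between -0.37 and 0.15 in wild-type cells. All 5 sgRNAs of POLR1A lay between -0.39 and -0.05 in mutant and between -0.64 and 0.53 in wild-type cells, and those of UBTF between -0.13 and 0.14 and between -0.68 and 0.26. The counts do not show how far any sgRNA lowered its target, so a gene that did not pass may have been lowered little or may have mattered little for growth, and these cannot be told apart.

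Each of POLR1C, POLR1D, TAF1D, POLR2E and POLR2D also had a separate set of sgRNAs against a second promoter. None of these sets was called in either line, where 0.789% of 1395 such sets were lower in mutant and 1.22% in wild-type cells. The POLR1D set was at -0.05 (SE 0.12) in mutant and -0.10 (SE 0.12) in wild-type cells, and the POLR2D set at 0.11 (SE 0.10) and 0.05 (SE 0.10), although the first-promoter sets of both genes fell. A POLR2E set lay at -0.04 (SE 0.11) and -0.19 (SE 0.11) and held 1 sgRNA that was called lower, at -1.66 in mutant and -2.22 in wild-type cells.

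For 15 genes, sgRNAs lay within 1 kb of those of another gene, and the repressor may act on both promoters. Of these neighbours, 1 was called lower in mutant and 2 in wild-type cells. SNRNP25, a spliceosome protein gene that shares 1 sgRNA with POLR3K, was at -0.74 (SE 0.11) in mutant and -0.53 (SE 0.11) in wild-type cells, beside -0.47 and -0.31 for POLR3K. PTCD3, next to POLR1A, was at -0.29 (SE 0.11) in mutant and -0.59 (SE 0.11) in wild-type cells, where it passed. CD3EAP shares 1 sgRNA with PPP1R13L, which did not pass at 0.10 (SE 0.12) and -0.17 (SE 0.12). RNF115, next to POLR3C, was the 1 neighbour called higher, at 0.32 (SE 0.09) in mutant cells. Of the 32 genes called lower in either line, 23 had no such neighbour. What part the neighbours had in the values was not tested.

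Whether mutant uL16 altered the need for a polymerase gene was asked by the difference of the changes, mutant minus wild-type. The test called 0 of the 48 genes in either direction, where 0.0171% of all 17547 genes were called lower (3 genes) and 0 higher. DESeq2 also called 0 of the 48. At an unadjusted p under 0.05 there were 4 of the 48, where 5.68% of all genes passed: ZNRD1 at -0.46 (SE 0.19) and TTF1 at -0.39 (SE 0.18) on the lower side, and POLR2G at 0.48 (SE 0.22) and GTF3C2 at 0.36 (SE 0.17) on the higher side. Each had an adjusted p of at least 0.8651 in edgeR. The values over the 48 genes ran from -0.46 to 0.54, with a median of 0.04.

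By role, the difference was positive for 6 of 6 subunits of polymerase II only, with a median of 0.33, which means that their falls were fitted as smaller in mutant cells. It was negative for 5 of 6 subunits of polymerase I only, with a median of -0.13, the exception being POLR1B at 0.00. For subunits of polymerase III only it was negative for 5 and positive for 5, with a median of 0.00. None of these genes passed alone. Genes of a role share the same libraries, so their signs are not independent. Over all 17547 genes the difference was positive for 8712, with a median of -0.0015. The mean over sgRNAs gave a median of 0.13 for polymerase II only and -0.17 for polymerase I only, and on that scale POLR2C, POLR2D and POLR2G were at -0.35, -0.03 and -0.19, below 0. POLR2D had the largest positive difference of the 48 genes, 0.54 (SE 0.32, edgeR adjusted p = 0.892), which the spread between replicates could not set apart from 0.

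**Figure D4:**
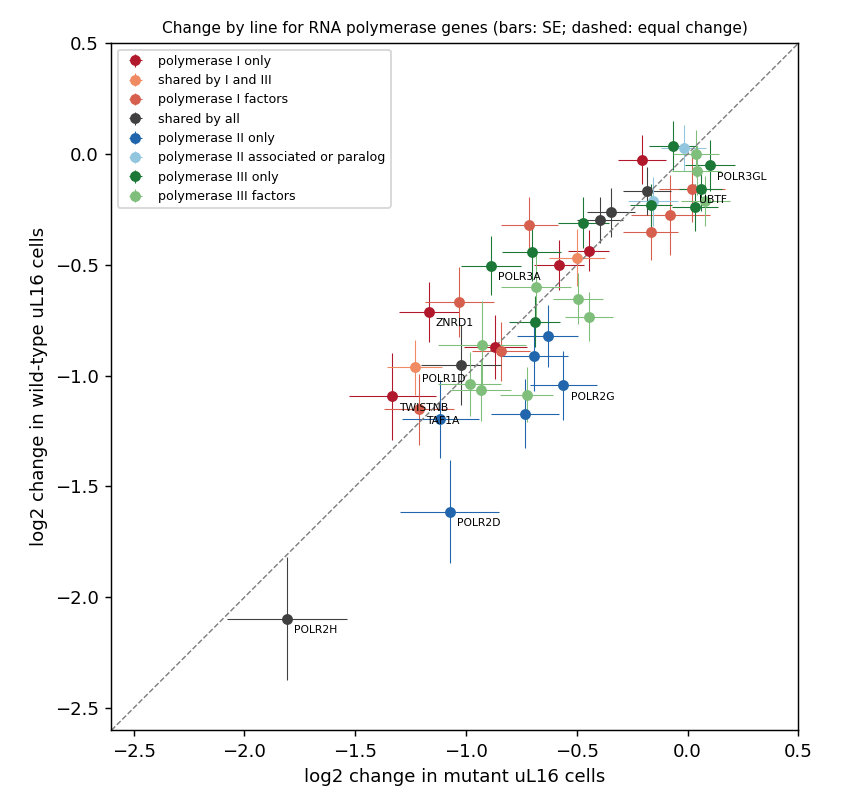
Log2 change of the summed sgRNA counts in mutant cells (horizontal axis) and wild-type cells (vertical axis) for genes of the set, coloured by role, with SE as bars and a dashed line where both are equal. The 6 points of polymerase II only lie below the dashed line, and POLR2H lies farthest down, at -1.81 and -2.10.

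Across the 48 genes, the changes in both lines went together, with a Pearson r of 0.88 and a Spearman rho of 0.88. This describes genes and not samples, and the genes share the same libraries. Over all 17547 genes the values were 0.90 and 0.45. At day 0 the lines did not differ for any of the 48 genes in edgeR's test, and 0 of all 17547 genes passed, with 242 (1.38%) at an unadjusted p under 0.05. In the 48 genes the day 0 difference ran from -0.17 for POLR2C to 0.33 for ZNRD1, which had 47.7 and 45.7 CPM in mutant and 37.5 and 36.9 CPM in wild-type cells at day 0. ZNRD1 was the 1 gene of the 48 with an unadjusted p under 0.05 there, and its fitted change in mutant cells is taken over that day 0 level.

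Related genes gave a setting for these values. Of all genes, 9.07% were lower in mutant and 9.28% in wild-type cells. Among 18 polymerase II initiation factors tested, 10 were lower in mutant and 11 in wild-type cells. GTF2B, which positions the polymerase at the start, was at -1.20 (SE 0.16) in mutant and -0.64 (SE 0.16) in wild-type cells. The TFIIH subunits GTF2H3 and ERCC2 were at -0.84 (SE 0.11) and -0.83 (SE 0.11) in mutant and -0.64 (SE 0.11) and -0.84 (SE 0.11) in wild-type cells. A further TFIIH subunit, GTF2H5, was at -0.42 (SE 0.15) in mutant, where it did not pass, and passed in wild-type cells. Of 6 genes that help assemble polymerases, 5 were lower in each line. They included GPN2 at -1.39 (SE 0.12) in mutant and -1.36 (SE 0.12) in wild-type cells, RPAP1 at -1.45 (SE 0.17) and -1.32 (SE 0.17), RPAP3 at -0.84 (SE 0.14) and -1.04 (SE 0.14), and GPN3 at -0.67 (SE 0.13) and -0.94 (SE 0.13).

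Of 5 accessory genes of the ribosomal DNA, 2 were lower in each line. NOLC1, a nucleolar phosphoprotein, was at -1.05 (SE 0.14) in mutant and -0.76 (SE 0.14) in wild-type cells, and TCOF1, its relative, at -0.82 (SE 0.12) and -0.73 (SE 0.12). DDX21 and BAZ2A were called in neither line, at -0.25 (SE 0.12) and 0.23 (SE 0.13) in mutant and 0.08 (SE 0.12) and 0.18 (SE 0.13) in wild-type cells. Of 8 accessory genes of polymerase III and the small nuclear RNAs, 1 was lower in mutant and 0 in wild-type cells. Against 9.07% and 9.28% of all genes, this list did not stand out. SSB, which binds the ends of polymerase III transcripts, was at -0.61 (SE 0.12) in mutant and -0.13 (SE 0.12) in wild-type cells, and its difference of -0.48 (SE 0.16) had an edgeR adjusted p of 0.865. MAF1, a repressor of polymerase III, SNAPC3 and SNAPC1 did not pass, at -0.23 (SE 0.10), 0.18 (SE 0.11) and 0.10 (SE 0.10) in mutant and -0.22 (SE 0.10), 0.18 (SE 0.11) and -0.12 (SE 0.10) in wild-type cells.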

How the data were processed

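The authors deposited a table of raw sgRNA counts, 1 column per library. Per the file headers, bases 1 to 39 of each read were kept and forward matches to a human CRISPRi library counted. The submitters' processing notes name hg38. The program that counted them is not given in these sources. sgRNAs of the first promoter with a mean count of at least 20 were summed per gene, with at least 3 sgRNAs per gene. sgRNA sets named by a transcript were left out. Counts were fitted in R 4.3.3 with TMM and edgeR 4.0.16 (glmQLFit and glmQLFTest, 1 mean per group, 8 libraries, 4 residual degrees of freedom), adjusted over all genes, sgRNAs or second-promoter sets. Alternatives used DESeq2 1.42.0 and limma 3.58.1 (prior count 2). The fit was also run on counts simulated from its own kind of model, with the spread estimated from these data. That run does not test how the real libraries vary. The PCR reads carried no molecular identifiers, so the precision that depth gives covers counting error alone. The genes and lists were chosen with earlier results of these data known. Every gene of the set may be named, plus the 4 genes of each related list with the smallest p, neighbours of the sgRNAs, GATA1, BCR and ZNF574. Values for every library are given for the gene with the largest fall of each role in each line and, chosen after values were seen, for ZNRD1, POLR1A and UBTF. Genes whose sgRNAs differ in sign, also in the rule, were many and are given by sgRNA ranges for a few. POLR2J was not analysed here. The values of 1 gene of the set are counted in the totals and are not reported here singly or drawn. Libraries with the same replicate number hardly deviated together (correlation of deviations 0.045 in mutant and 0.018 in wild-type cells), so the main fit did not pair them. Such a correlation cannot show whether they were derived from the same cells.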

Additional observations from a re-analysis of the deposited data

How the results depend on the processing

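The changes were recomputed in 20 other settings, 8 of them leaving out 1 library. The robust fit, the addition of sgRNA sets named by a transcript, and the settings for single sgRNAs and second promoters were chosen after seeing the data. No called change of the 48 genes reversed. Of the 32 calls in mutant cells 19 passed in every setting where the gene was tested, and of the 28 in wild-type cells 20 did. POLR2H was tested in 19 of the 20 settings, since fewer than 3 of its sgRNAs had a mean count of at least 100. Of the genes not called, 1 (POLR3E) passed in some setting in mutant cells and 8 (POLR2F, POLR2K, POLR3C, POLR3E, POLR3G, POLR3K, RRN3 and TTF1) in wild-type cells. The number of the 48 genes lower was 25 to 32 in mutant (lowest without mutant day 0 replicate 1) and 22 to 30 in wild-type cells (lowest without wild-type day 0 replicate 2) when 1 library was left out, and no gene of the 48 passed in the difference. Among all genes, the number higher in mutant cells was 140, against 441 with DESeq2, 62 with limma, 69 with control scaling and 35 to 243 when 1 library was left out. It was 36 without mutant day 0 replicate 1, 35 without mutant day 0 replicate 2, 91 and 89 when either wild-type day 0 library was missing, and 243 without either wild-type day 9 library. In wild-type cells the number higher was 173, against 696 with DESeq2, 83 with control scaling and 48 to 336 when 1 library was left out: 48 and 62 when either wild-type day 0 library was missing, 112 without either mutant day 0 library, and 336 and 286 when either wild-type day 9 library was missing. In the difference 3 genes were lower and 0 higher, against 29 and 18 with DESeq2 and 1 higher without the most abundant sgRNA of each gene. Without 1 library they were 1 to 15 lower and 0 to 6 higher: 5 lower without either mutant day 9 library, 1 lower without wild-type day 0 replicate 1, 15 lower and 6 higher without wild-type day 9 replicate 1, and 2 higher without wild-type day 9 replicate 2. Of the single sgRNAs of the 48 genes, 0 to 1 were higher in mutant cells when 1 library was left out, the 1 without mutant day 9 replicate 1 or wild-type day 9 replicate 1. When 1 library was left out, the number of all genes called lower was smallest in each line without a day 0 library of that line. The number among the 48 genes moved the same way. The cause of these shifts was not tested.

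Same-numbered replicates were not paired in the main fit. The replicate block, which pairs them, gave 32 of the 48 genes lower in mutant and 31 in wild-type cells (POLR2F, POLR3K and RRN3 gained), with 9 of all genes lower and 1 higher in the difference. With libraries of these depths, sgRNAs with few counts set the limit at day 9. A sgRNA of POLR2H had counts of 0 and 9 in the mutant day 9 libraries, so its fitted value rests on few counts. How far that value depends on a prior count was not tested.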
